A study of Mus musculus with 2 samples.

Results

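The genes of the DNA replication machinery were followed through native RNA sequenced from mouse retinal organoids, to see where on their transcripts N6-methyladenosine (m6A) was scored and how strongly. The list named 49 genes and a gene belonged to it by its name in the deposited tables. Of these, 48 were listed at any depth, among 8262 named genes in all. They held 379 of 57784 listed positions. With at least 20 reads at a position, which is called a site here, 41 of the 49 genes had a site in replicate 2, 29 in replicate 1, and 27 had at least 1 site shared by both libraries at the same transcript position. Among all named genes listed in the series, 3919 of 8057 had a site in replicate 2, 2026 of 5699 in replicate 1, and 1887 of 8262 a shared site.

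Both libraries came from wild-type (WT) Rx:GFP organoids collected at day 6 after culture with AGN at 0.1 µM throughout, so they form 1 group with n = 2 and no untreated or mutant group was compared. Rx:GFP is a mouse cell line that carries a green fluorescent reporter for Rx, an eye-field gene. Poly(A) RNA was read directly on nanopores with the RNA002 chemistry, 1 flow cell for each library. The labels give both libraries the same batch and do not say whether they came from separate cultures, so the spread between them may be technical. The series title names METTL3, the catalytic subunit of the m6A writer complex, as the subject of the study.

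DNA replication begins at origins that the origin recognition complex, Cdc6 and Cdt1 license by loading the ring of Mcm2 to Mcm7. Cdc45 and the GINS proteins turn that ring into the active helicase, primase and the polymerases copy the strands, the clamp Pcna and its loader hold the polymerases on DNA, and Fen1 and Lig1 join the lagging-strand fragments. Retinal progenitors divide repeatedly before they differentiate, and these genes are transcribed in dividing cells. On mRNA, m6A is bound by reader proteins and is known for its effects on decay, splicing and translation.

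All listed positions lay on 4 motifs of 5 bases (5-mers), written in DNA letters. They are shown because every comparison here is made within a motif, and the capital marks the adenosine that can carry the methyl group.
A-ending motif: ggAca
C-ending motif: ggAcc
T-ending motif, G first: ggAct
T-ending motif, A first: agAct

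The listed end of a position was matched to the RefSeq starts of GRCm38.p6. Of 54 early positions whose motif occurred in the first 50 transcribed bases, 24 had the motif placed so that the listed end fell on base 4 of the motif, and the next most frequent placement held 3. By that match the adenosine lies 1 base before the position given here. Positions are the listed ends, counted along the transcript. Placement in coding sequence or untranslated regions was not analysed here, since beyond these starts no transcript sequence or annotation was used.

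The value at a site is the fraction modified, between 0 and 1, as deposited. Coverage, the reads at the position, is given beside it, while the denominator of the fraction itself is not stated, so no interval was set on a single value. Coverage over the listed positions of replication genes ran from 5 to 403 reads in replicate 1 (median 19) and from 5 to 790 reads in replicate 2 (median 24), against medians of 10 and 12 reads over all listed positions. At the shared sites of these genes replicate 2 had a median of 2.27 times the reads of replicate 1. No position of these genes was listed in the 2 small minus tables. Of 8 eye-field and retinal progenitor markers, 7 were listed and 4 had a shared site, with up to 111 and 261 reads. None of 6 pluripotency markers, 3 endoderm or 3 mesoderm markers was listed in either library. Of 3 neuronal markers only Tubb3 was listed, with up to 11 and 17 reads, and 2 of 3 pigment epithelium markers with up to 6 and 14 reads.

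The deepest member was Pcna, with up to 403 reads in replicate 1 and 790 reads in replicate 2. Mcm7 reached 135 and 280 reads, Rrm2 98 and 227, Tyms 99 and 175, and Rrm1 76 and 202. At the low end stood Mcm10 with 5 and 12 reads and Rfc1 with 6 and 16. In bulk RNA of this kind, fewer cells that express a gene and less RNA per cell cannot be told apart. Coverage also differed along a transcript. Between positions 754 and 3149 of Mcm2 it went up, from 26 to 65 reads in replicate 1 and from 82 to 135 in replicate 2, and between positions 518 and 1666 of Tyms it went down in replicate 2, from 175 to 10 reads.

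**Figure D1:**
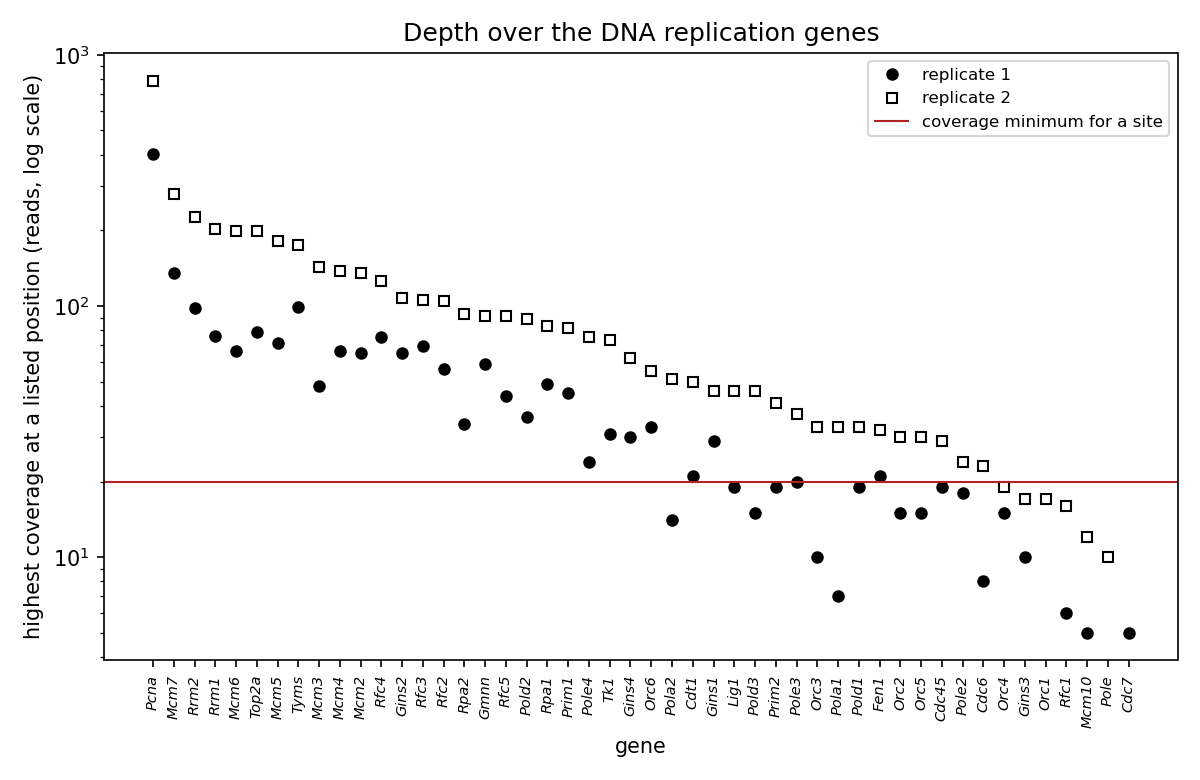
Highest coverage at a listed position of each listed replication gene, in reads on a log scale, with replicate 1 as filled circles, replicate 2 as open squares and the minimum of 20 reads as a line. Pcna stands at 403 and 790 reads, and most genes of the origin recognition complex lie under the line in replicate 1.

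The shared sites numbered 87 in the 27 genes, with a median fraction of 0.340 (mean of both libraries per site) and a range from 0.0132 to 1. In all other genes the median was 0.368 over 5134 shared sites. A fraction of at least 0.5 in both libraries was found at 28 of the 87 sites, or 32.2%, in 19 genes. The background was 36.1% of the shared sites of all other genes. A fraction of at least 0.9 in both was found at 13 sites (14.9%), where the background was 9.27%. With 2 libraries an exact paired permutation cannot give p under 0.5, so these shares are described and not tested.

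The Mcm2 to Mcm7 paralogues, the 6 subunits of the ring-shaped helicase, were all covered and carried 33 of the 87 shared sites. Only GGACA reached 0.5 in both libraries within the ring, at 9 of 16 sites. The background for GGACA was 61.8% of 1962 shared sites in all other genes. Neither the 8 GGACC nor the 9 GGACT sites of the ring reached it, where the background was 16.7% and 22.9%, and none of the ring's shared sites was AGACT.

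Mcm2 (chromosome 6, 88860456 to 88875762, with the gene's start and end as the tables list them, here and for the other genes) had 6 shared sites. Position 2731, a GGACA, had 1.00 and 0.992 at a coverage of 59 and 128 reads, in the order replicate 1, replicate 2 that is kept for all pairs of values. Its other GGACA sites had 0.923 and 0.971 at position 754, 0.941 and 0.901 at position 1918, and 0.467 and 0.250 at position 2698. Both libraries thus placed 3 sites above 0.9 on this transcript, while position 2698 differed by 0.217 between them, the widest gap in the ring. Position 1702, a GGACC, stayed near 0 with 0.0625 and 0.0706, and the GGACT at position 3149 had 0.277 and 0.161.

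Mcm3 (chromosome 1, 20873192 to 20890536) had the most shared sites of any member, 8, with 22 to 48 reads in replicate 1. Its GGACA sites at positions 1933 and 1907 had 0.625 and 0.603, and 0.563 and 0.4. The GGACC sites at positions 868 and 877 lie 9 bases apart and had 0.0476 and 0.172, and 0.381 and 0.250. Position 877 was the higher in both libraries, by 0.206 ± 0.181 (SD, n = 2). The GGACT sites had 0.100 and 0.0435 at position 167, 0.143 and 0.107 at position 1523, 0.133 and 0.107 at position 2641, and 0.370 and 0.357 at position 2702. Position 2702 was the highest GGACT in both libraries.

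Mcm4 (chromosome 16, 15441761 to 15455264) had 6 shared sites. The GGACA sites spanned almost the whole scale in both libraries, with 0.118 and 0.0984 at position 176, 0.763 and 0.722 at position 2705, and 0.969 and 0.910 at position 1375. The GGACC at position 1750 had 0.286 and 0.147. The GGACT sites had 0.150 and 0.186 at position 2827 and 0.292 and 0.446 at position 3247.

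Mcm5 (chromosome 8, 75836197 to 75855067) was the single member with shared sites on more than 1 transcript, 3 on one and 2 on another. On the deeper transcript the GGACA at position 1567 had 0.647 and 0.472 over 62 and 147 reads, the GGACT at position 2445 had 0.0741 and 0.0522, and the GGACC at position 2625 had 0.455 and 0.397. On the other, the GGACA at position 1536 had 0.435 and 0.522 over 26 and 30 reads and the GGACT at position 2414 had 0 and 0.0882. Both pairs of like motif are 31 bases apart in numbering; whether they are the same bases counted on both isoforms was not tested. Their ranges over the libraries overlapped at the GGACA pair and at the GGACT pair.

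Mcm6 (chromosome 1, 128259327 to 128287401) had 6 shared sites. The GGACA at position 2719 had 0.946 and 0.961 over 66 and 199 reads, and that at position 1589 had 0.697 and 0.748. Its other GGACA sites were low, with 0.0667 and 0.171 at position 1128 and 0.0417 and 0.0641 at position 1624. The GGACC sites had 0.114 and 0.0616 at position 1506 and 0.0638 and 0.0915 at position 2595. Sites of the same motif on the same transcript therefore fell at both ends of the scale in each library.

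Mcm7 (chromosome 5, 138162845 to 138170684), the deepest of the ring, had 2 shared sites. The GGACA at position 2807 had 0.591 and 0.569 over 135 and 280 reads. The GGACC at position 770 had 0.106 and 0.257 over 77 and 173 reads.

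**Figure D2:**
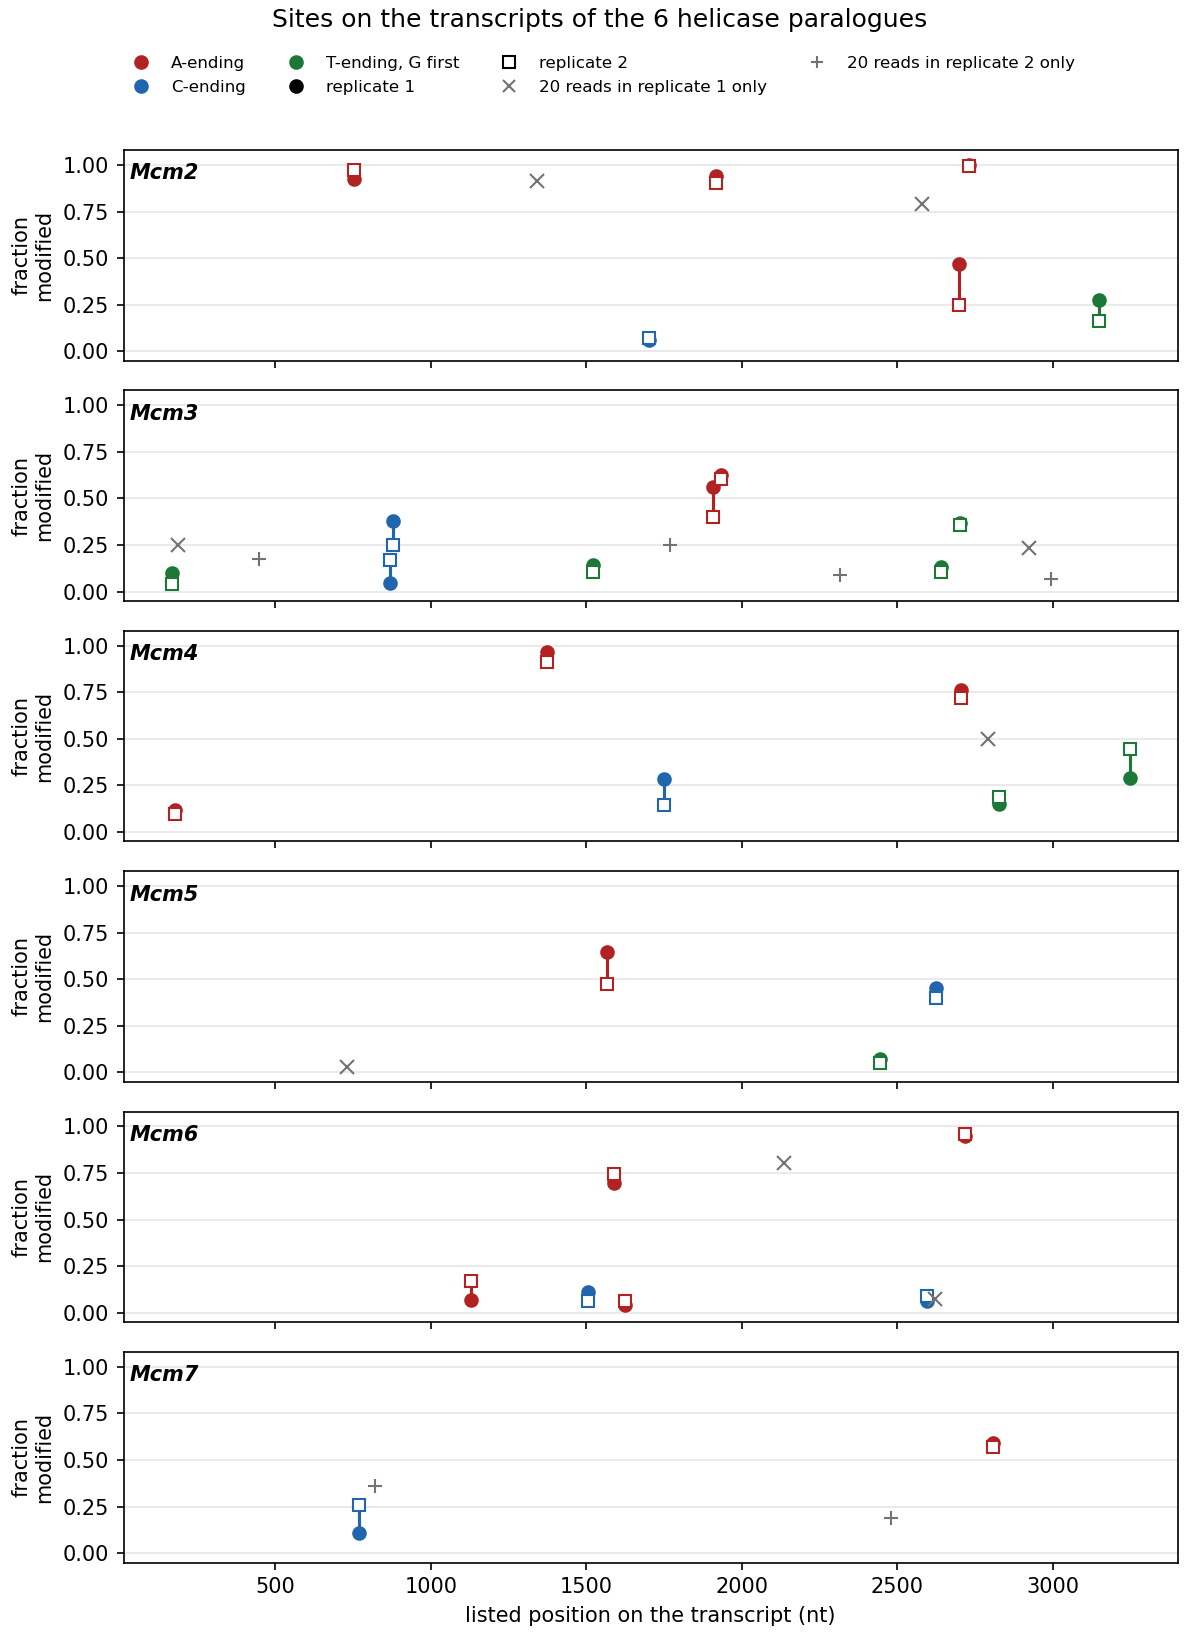
Fraction modified against listed position in nt on the transcript with the most shared sites, 1 panel for each of Mcm2 to Mcm7, with shared sites coloured by the last base of the motif (and, for T, its first base), filled circles for replicate 1 and open squares for replicate 2. Grey crosses and plus signs are sites with 20 reads in 1 library only; the second transcript of Mcm5 is not drawn.

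Side by side, the mean fraction over a paralogue's shared sites was highest in Mcm2 at 0.585 ± 0.0382 (SD, n = 2). Mcm4 followed with 0.424 ± 0.00800, Mcm7 with 0.381 ± 0.0455, Mcm6 with 0.336 ± 0.0198, Mcm5 with 0.314 ± 0.0112 and Mcm3 with 0.275 ± 0.0285. Mcm2 lay above the rest in both libraries (0.612 and 0.558). All paralogues were read in the same libraries, and within each library Mcm4 was above Mcm7 (0.430 against 0.349, and 0.418 against 0.413) and Mcm7 above Mcm6 (0.349 against 0.322, and 0.413 against 0.35). The gap between Mcm4 and Mcm7 was smaller than the SD of Mcm7. Mcm6 and Mcm5 were alike in replicate 1 and apart in replicate 2, at 0.322 for both in replicate 1 and 0.35 against 0.306 in replicate 2. Mcm5 was above Mcm3 in both (0.322 against 0.295, and 0.306 against 0.255). The Mcm5 mean includes both of its transcripts, where like motifs may be the same bases counted on each. The motifs differ between the paralogues: GGACA made up 4 of 6 shared sites in Mcm2, 4 of 6 in Mcm6, 3 of 6 in Mcm4, 2 of 5 in Mcm5, 2 of 8 in Mcm3 and 1 of 2 in Mcm7.

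Within GGACA alone the order changed. The mean was 0.806 ± 0.0383 in Mcm2, 0.597 ± 0.0282 in Mcm4, 0.580 ± 0.0156 in Mcm7, 0.548 ± 0.0652 in Mcm3, 0.519 ± 0.0311 in Mcm5 and 0.462 ± 0.0340 in Mcm6 (each SD, n = 2). Mcm2 was above the others in both libraries, with 0.833 and 0.779. Within each library Mcm4 was above Mcm7 (0.617 against 0.591, and 0.577 against 0.569) and Mcm3 above Mcm5 (0.594 against 0.541, and 0.502 against 0.497), while Mcm7 and Mcm3 changed order. Mcm6, with 0.438 and 0.486, lay below Mcm5 at 0.541 and 0.497. The Mcm5 mean takes in positions 1567 and 1536, on different transcripts. At position 1567 alone Mcm5 had 0.647 and 0.472, above Mcm3 in replicate 1 and below both Mcm3 and Mcm6 in replicate 2. At GGACC, Mcm5 had the highest mean (0.426 ± 0.0406, 1 site) and Mcm2 the lowest (0.0666 ± 0.00573, 1 site). These means rest on 1 to 4 sites each.

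The partners of the ring were covered in part. Gins1, a subunit of the GINS complex, had 1 shared site, a GGACA at position 530 with 0.790 and 0.919 over 29 and 46 reads. Gins2 had 2, with 0.211 and 0.304 at the GGACA of position 633 and 0.0588 and 0.0632 at the GGACT of position 1018. The 4 sites of Gins4 were lowest at position 619, a GGACC with a mean of 0.0827 ± 0.00608, and highest at position 996, also a GGACC, with 0.313 ± 0.0884 (both SD, n = 2). The shared site of Gins1 was thus above 0.5 in both libraries and the 6 shared sites of Gins2 and Gins4 were below it. Of these 7 sites 3 were GGACA (background at 0.5 in both 61.8%) and 4 were not (20.2%). Gins4 also had a high GGACA in replicate 1 only, at position 242, with 0.947 at 23 reads. Cdc45, which joins the helicase with GINS, was listed at 1 position, the GGACA at 1494, with 0.966 at 29 reads in replicate 2 and 1.00 at 19 reads in replicate 1, just under the minimum. Gins3 (up to 10 and 17 reads) and Mcm10, a replication initiation factor, had no site.

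Of the 10 origin licensing genes, 7 had fewer than 20 reads at every listed position of replicate 1 or were not listed there, and 3 had shared sites, 7 in all, with a median of 0.131 and none at 0.5 in both libraries. Of the 7 sites, 4 were AGACT and 1 was GGACA, and the background outside GGACA was 20.2%. Orc6, a subunit of the origin recognition complex, had 0.167 and 0.250 at position 1061, 0.0952 and 0.167 at position 1090, and 0 and 0.108 at position 1126. Gmnn (geminin), the inhibitor of Cdt1, had 1 site, position 303, with 0.156 and 0.175 over 59 and 91 reads.

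Cdt1, which helps to load the ring, differed between libraries. Its 3 shared sites were all 0 over 21 reads in replicate 1, and had 0.2, 0.407 and 0.111 over 50, 50 and 48 reads in replicate 2 at positions 1860, 1881 and 2029. The GGACA at position 1529 of Cdt1 was listed in replicate 2 alone, with 0.977 over 50 reads.

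In replicate 2 alone, 4 more licensing genes had sites. Orc2 had 6 sites with fractions from 0.150 to 0.786, Orc3 had 5 from 0.100 to 0.727, Orc5 had 4 from 0.111 to 0.909 and Cdc6 had 7 from 0 to 1.00, the last at the GGACA of position 1070 over 20 reads. Replicate 1 listed some of the same positions with fewer than 20 reads, and how closely it matched differed by gene. At the 4 positions of Orc5 it had 15 reads and values within 0.0419 of those of replicate 2. At Cdc6 it had 6 to 8 reads and differed by more at 3 of the 4 sites it listed, with 0.8 against 0.385 at position 1307, 0.5 against 0.0588 at position 2297 and 0.75 against 0.546 at position 2484. At position 1625 of Orc2 it had 0.833 at 13 reads against 0.647. Orc4 was listed with up to 15 and 19 reads and Orc1 only in replicate 2, with up to 17. Cdc7, the kinase that activates the loaded ring, was the reverse case: 7 positions were listed in replicate 1 at 5 reads each and none in the deeper replicate 2.

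The clamp and its loader had 16 shared sites, the most of any group after the ring. Pcna (chromosome 2, 132091082 to 132095234) was low at all 3 shared sites, with 0.0638 and 0.0786 at position 215, 0.0906 and 0.109 at position 401, and 0.228 and 0.213 at the GGACA of position 1014, over 353 to 403 and 706 to 790 reads. The libraries differed by at most 0.0180 there. A pseudogene copy, Pcna-ps2, was listed with up to 17 reads in replicate 1 and 6 in replicate 2, and how reads were divided between the copies is not given.

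Among the loader subunits, Rfc3 (chromosome 5, 151566221 to 151574707) had 5 shared sites. The GGACA at position 108 had 0.960 and 0.959, and the GGACT at position 1141 had 0.944 and 0.958. The sites in between were lower in both libraries, with 0.341 and 0.425 at position 192, 0.173 and 0.202 at position 217, and 0.304 and 0.264 at position 308. Position 1141 was the only 1 of the 48 shared sites of these genes outside GGACA at 0.9 or more in both libraries, where the background was 2.49%.

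Rfc5 (chromosome 5, 117516168 to 117527112) also had 5 shared sites. Its GGACA sites had 1.00 and 0.944 at position 1227, 0.936 and 0.922 at position 257, 0.5 and 0.394 at position 183, and 0.154 and 0.120 at position 804. The GGACC at position 1473 had 0.852 and 0.905 over 42 and 91 reads, and it was the single GGACC of these genes at 0.5 or more in both libraries. Rfc2 had 0.849 and 0.790 at the GGACA of position 1454 and 0.265 and 0.354 at the GGACT of position 1354. The single site of Rfc4, position 129, had 0.75 and 0.723. Rfc1, the large subunit, had no site.

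Replication protein A coats single-stranded DNA. Its large subunit gene Rpa1 had 4 shared sites, with 0.85 and 0.952 at position 822, 0.261 and 0.473 at position 2017, 0.318 and 0.222 at position 2077, and 0 and 0.0533 at position 1887. Rpa2 had 2, at opposite ends of the scale: 0.952 and 0.870 at the GGACT of position 1154, and 0 and 0.0263 at the GGACC of position 809. Rpa3 was the single member not listed in either library.

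Polymerase and primase genes had shared sites in 3 of 11 cases. Pold2, a small subunit of polymerase delta, had 0.714 and 0.755 at position 831 and 0.905 and 0.831 at position 1590, both GGACA. Prim1, the catalytic primase subunit, had 0.435 and 0.45 at position 524. Pole4, a small subunit of polymerase epsilon, had 0.952 and 0.955 at the GGACA of position 274, 0.714 and 0.302 at position 680, and 0.444 and 0.236 at position 712, over 22 to 24 reads in replicate 1 and 73 to 75 in replicate 2. The gap of 0.412 at position 680 was the largest between libraries at any shared site of these genes.

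Another 6 polymerase genes had sites in replicate 2 only, and Pole3 had sites in each library on different transcripts. These include a GGACA in each, with 0.143 at position 1841 in replicate 1 and 0.118 at position 1701 in replicate 2. Whether these are the same base counted on both isoforms was not tested. Pold1, the catalytic subunit of polymerase delta, had 6 sites from 0.250 to 0.957. Its 4 GGACA sites had 0.667 to 0.957, where the median of other genes at GGACA in replicate 2 was 0.667. Replicate 1 listed the same 4 positions with 13 to 19 reads and fractions from 0.625 to 1.00. Pold3 had 7 from 0.0400 to 1.00, and position 2486, a GGACA, was 1.00 in replicate 2 over 41 reads and also 1.00 over 15 reads in replicate 1. Other positions of Pold3 did not match as well, with 0.5 at 11 reads in replicate 1 against 0.211 at position 754 and 0.0909 at 13 reads against 0.391 at position 1177. Pola2 had 5 from 0.188 to 0.774, Prim2 had 4 from 0.0385 to 0.938 (the lowest, position 478, had 0.417 at 14 reads in replicate 1), Pola1 had 3 from 0.227 to 0.389 and Pole2 had 1 at 0.100. Pole, the catalytic subunit of polymerase epsilon, was listed in replicate 2 alone with up to 10 reads.

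Of the genes that finish strands and relieve topology, Top2a (chromosome 11, 98883769 to 98915015), topoisomerase II alpha, had 4 shared sites. The GGACA at position 2182 had 1.00 in both libraries over 25 and 97 reads. Positions 4602 and 5011, both GGACT, had 0.4 and 0.347, and 0.389 and 0.497, and the GGACC at position 1749 had 0.0667 and 0.273. In replicate 2 the GGACC at position 116 had 0.979 over 53 reads. Lig1, the ligase of lagging-strand fragments, had 7 sites in replicate 2 only, from 0.107 to 1.00. Its GGACA at position 2774 had 1.00 over 46 reads there and 1.00 over 19 reads in replicate 1, whereas the GGACA at position 620 had 0.625 over 42 reads there and 0.917 over 14 reads in replicate 1. The flap nuclease gene Fen1 was spread over 4 transcripts and had 5 sites in replicate 2, from 0.0357 to 0.6, and 1 in replicate 1 at 0. The replicate 1 site, the GGACA at position 1775, was also 0 in replicate 2, at 18 reads. The 0.0357 belongs to the GGACA at position 1801 of another transcript, and whether both are the same base was not tested.

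The 4 genes of nucleotide supply all had shared sites, 8 in total with a median of 0.753, and 5 of these were GGACA. All 5 were at 0.5 or more in both libraries, where the background for GGACA was 61.8%, and none of the other 3 was. Rrm1 (chromosome 7, 102090902 to 102118978), the large subunit of ribonucleotide reductase, had 1.00 and 0.983 at position 2832 over 76 and 202 reads, and 0.0857 and 0.139 at the GGACC of position 959. Rrm2, the small subunit, had 0.810 and 0.732 at position 757 and 0.116 and 0.137 at the GGACT of position 1951. Tyms, which makes thymidylate, had 0.815 and 0.766 at position 518. In Tk1, the salvage thymidine kinase, position 1097 had 1.00 in both libraries over 30 and 73 reads, position 1233 had 0.778 and 0.694, and the GGACT at position 1053 had 0.5 and 0.314.

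**Figure D3:**
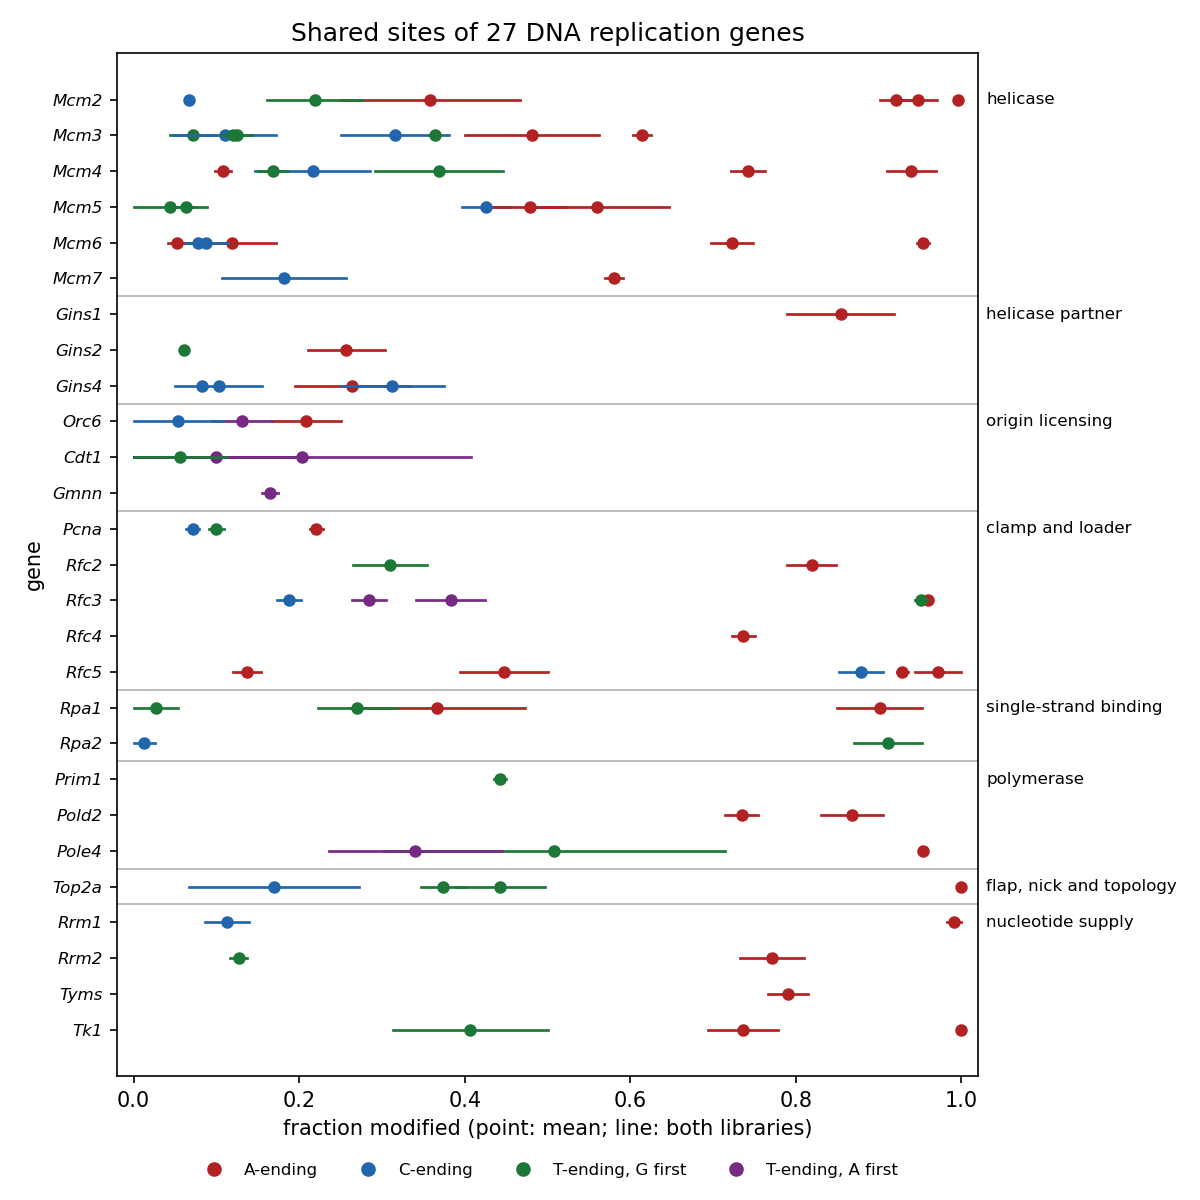
Fraction modified at every shared site of the 27 genes, grouped by role, with a point at the mean of both libraries, a line joining the 2 library values and colours for the motif class. The highest shared site was a GGACA in 22 of the 27 genes (81.5%, against 52.1% of 1860 other genes, which had a median of 2 shared sites where the members had 3), and the 7 sites of the licensing genes lie at the low end.

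The replication genes were then set against all other genes within each 5-mer. GGACA made up 44.8% of their shared sites (38.2% in other genes), GGACT 26.4% (23.7%), GGACC 20.7% (22.3%) and AGACT 8.05% (15.8%). At GGACA the median was 0.763 and 0.732 in the 2 libraries against 0.688 and 0.667 in other genes, a difference of 0.0707 ± 0.00714 (SD, n = 2; 39 and 1962 sites). At GGACC it was 0.0864 and 0.151 against 0.219 and 0.229, a difference of -0.105 ± 0.0385 (18 and 1144 sites), which was -0.0648 with a minimum of 50 reads. For every motif the SD is between the libraries over the same sites, and it does not measure the spread from site to site. With 20 reads the members lay above other genes at GGACA and below them at GGACC in both libraries, but over every position listed in both libraries the difference at GGACA was -0.0424.

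At GGACT the members' median was 0.265 and 0.186 against 0.267 and 0.250, a difference of -0.0329 ± 0.0436 that is smaller than its own SD. At AGACT it was 0.156 and 0.236 against 0.267 and 0.250, a difference of -0.0624 ± 0.0689, again within the SD and from 7 sites. The direction at AGACT also turned with the coverage minimum, to 0.0502 without one and 0.0405 with 50 reads. At GGACA the difference was smaller over all sites of replicate 2, where the medians were 0.688 over 70 member sites and 0.667 in other genes, and among sites of replicate 2 only it was 0.625 over 31 sites against 0.667. At GGACC the median over the 33 sites of replicate 2 was 0.172 against 0.231, and over the 15 sites of replicate 2 only it was 0.250 against 0.231. At GGACT the median over the 42 sites of replicate 2 was 0.232 against 0.230, and over the 19 of replicate 2 only 0.250 against 0.219. At AGACT it was 0.296 against 0.263 over 23 sites, and 0.338 against 0.267 over the 16 of replicate 2 only.

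**Figure D4:**
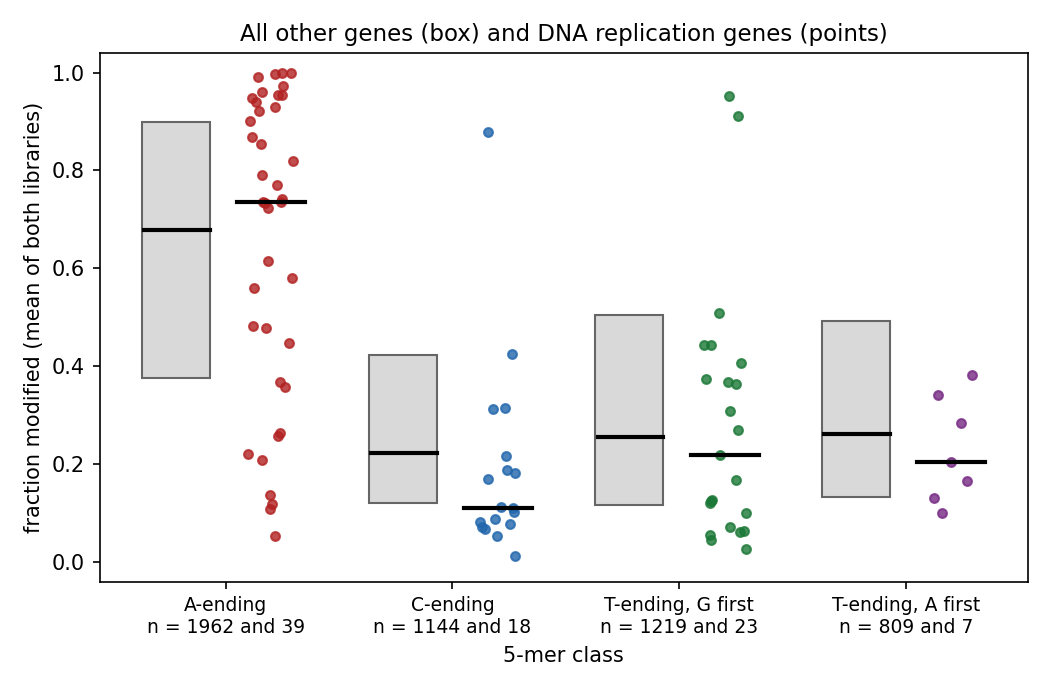
Fraction modified (mean of both libraries) at shared sites by motif class, where each grey box spans the quartiles of all other genes with the median as a line, and points are sites of replication genes with their median as a line. The members' median is higher at the A-ending class (0.736 against 0.678) and lower at the C-ending class (0.111 against 0.223), with both groups spread over most of the scale; at the A-ending class the sign of the difference turns to -0.0424 without the coverage minimum.

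Counted at a fraction of 0.5 in both libraries, 25 of 39 GGACA sites of the members were called (64.1%), near the background of 61.8%. Outside GGACA, 3 of 48 sites reached it (6.25%), where the background was 20.2% of 3172 sites. They were the GGACC of Rfc5 at position 1473 and the GGACT sites of Rfc3 at position 1141 and Rpa2 at position 1154. By motif these are 1 of 18 at GGACC (background 16.7%), 2 of 23 at GGACT (22.9%) and 0 of 7 at AGACT (21.3%). These shares cover shared sites only. Over all sites of replicate 2 the members' median was below that of other genes at GGACC, but not at GGACT or AGACT. At 0.9 in both, 12 of 39 GGACA sites in 9 genes were called (30.8%), where the background was 20.2%. Those genes were Mcm2, Mcm4, Mcm6, Rfc3, Rfc5, Pole4, Top2a, Rrm1 and Tk1. Sites of 1 gene share their transcripts, and 3 of the 12 lay in Mcm2 and 2 in Rfc5.

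The libraries differed by a median of 0.0534 at the 87 member sites and by 0.0515 at the shared sites of other genes. Neither library was higher throughout, as replicate 2 was higher at 43 sites, lower at 42 and equal at 2. Across the 87 sites Pearson's r was 0.949 and Spearman's rho was 0.903, as a description over sites that share libraries and transcripts. At sites whose lower coverage was 20 to 49 reads the median gap was 0.0828 (51 sites, 0.0641 in other genes). It was 0.0451 at 50 to 99 reads (32 sites, 0.0437 in other genes) and 0.0166 at 100 or more (4 sites, 0.0246). A gap over 0.2 occurred at 6 sites (6.90%, against 5.92% in other genes), and 5 of them had fewer than 50 reads in 1 library. A fraction of 0 was listed at 7 of the 87 shared sites in replicate 1, 3 of them in Cdt1, and at none in replicate 2. In other genes it was listed at 117 of 5134 shared sites in replicate 1 and at 35 in replicate 2.

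**Figure D5:**
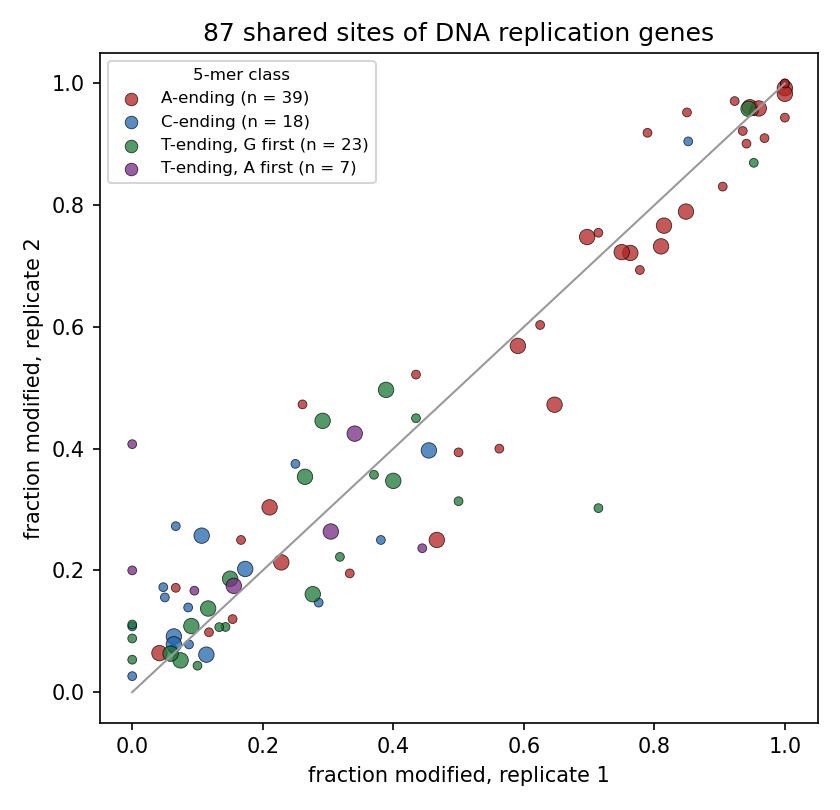
Fraction modified in replicate 2 against replicate 1 at the 87 shared sites, with the line of equality, colours for the motif class and larger points where both libraries had at least 50 reads. The large point farthest from the line is position 2698 of Mcm2 (0.467 and 0.250), and the points at 0 in replicate 1 include the 3 sites of Cdt1.

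Besides the shared sites, 81 member sites in 23 genes were retained in replicate 2 only and 26 in 16 genes in replicate 1 only. That is 81 of their 168 sites in replicate 2 and 26 of their 113 in replicate 1, where the whole series had 10991 of 16212 and 1242 of 6463. Of the 81, 45 (55.6%, against 62.8% in other genes) were listed in replicate 1 with 6 to 19 reads, where the fractions differed by a median of 0.0667 and by up to 0.441. For 22 others (27.2%, against 20.9% in other genes), replicate 1 had under 20 reads at every listed position of the transcript. The remaining 14 were not listed in replicate 1 although their transcript had 20 reads at another position. Of these, 5 (6.17% of the 81, against 8.60% in other genes) did not lie between positions with 20 reads or more. The other 9 (11.1% of the 81, against 3.06% in other genes) lay between such positions. The sites of Mcm7 at positions 819 and 2480 are of this kind, with 0.362 at 176 reads and 0.191 at 263 reads in replicate 2, between positions of 77 and 135 reads in replicate 1.

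Of the 26 sites retained only in the shallower replicate 1, 16 (61.5%) lay between positions with at least 20 reads in replicate 2 and yet were not listed there, against 42.0% of 1216 such sites in other genes. Position 1342 of Mcm2 had 0.913 over 34 reads in replicate 1, and its flanking positions had 82 and 102 reads in replicate 2. Position 1541 of Pold2 had 1.00 over 35 reads, position 1125 of Rfc5 had 1.00 over 44 reads and position 2137 of Mcm6 had 0.807 over 57 reads, none of which was listed in replicate 2. The rule by which a position enters the tables is not given in the sources used here, so an unlisted position is not a fraction of 0.

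Within 50 bases of each other on a transcript, 5 pairs of shared member sites had the same motif. In Mcm6 the GGACA sites at positions 1589 and 1624 lie 35 bases apart, and the second minus the first was -0.655 in replicate 1 and -0.684 in replicate 2. In Mcm2 the GGACA sites at positions 2698 and 2731 lie 33 bases apart and differed by 0.533 and 0.742. Both differences exceeded the gap between libraries at each site. The other 3 pairs, 2 in Mcm3 and 1 in Cdt1, differed by 0.104 to 0.206 on average. Over 171 such pairs in other genes the median difference was 0.253 (interquartile range 0.102 to 0.456), and 34 of them (19.9%) differed by more than 0.5. Such pairs were looked for after the values had been seen.

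A further list of 41 DNA replication genes outside the members was set beside them. Of these, 35 were listed and 15 had a shared site, 51 sites in all, with a median fraction of 0.317 and 18 sites at 0.5 or more in both libraries, close to the background share of 36.1%. The members' median of 0.340 lay close to it.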

How the data were processed

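Direct RNA libraries of 2 organoid samples were analysed from 1 plus table each. Coverage is a deposited whole-number count of reads at a transcript position, never under 5. The fraction modified is a deposited fraction whose denominator is not given. The submitters' processing notes name mm10. The starts of none of 48 listed members lay within 1000 bases of the GRCm38.p6 RefSeq start, so gene coordinates are quoted as deposited, with their build not named, and were not combined with it. Base caller, aligner, modification caller and listing threshold are not given in the sources used here.

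Genes were taken by name. A site had at least 20 reads; sites were matched on transcript with version and end position. Values are given per library or as mean ± SD (n = 2), and medians are over sites. Other genes include unnamed transcripts. No interval was set on a single fraction. The members and lists were chosen with earlier results of these data known; every member is accounted for, every shared site of Mcm2 to Mcm7 is given, and for other members at least the number of shared sites with the highest and lowest. The pairs within 50 bases were examined after the values were seen. Alternatives were coverage minimums, 1 transcript per gene, 1 value per gene, other thresholds and single libraries. The site matching and the comparison by motif were tested on simulated data with known answers. Python 3.11.15, pandas 2.3.3 and numpy 2.4.6 were used.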

Additional observations from a re-analysis of the deposited data

How the results depend on the processing

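Of 68 alternative values, 50 stayed within the SD between libraries, or within 1.5 times for counts and for the median gap between libraries, and 18 did not. For the motif differences and the paralogue means, a single library always lies within the SD of 2 libraries, so those values could not move. Without a minimum, Mcm2, Mcm4, Mcm5, Mcm6 and Mcm7 kept the same shared sites and thus the same means. The count of 50 is therefore no measure of stability. Without a coverage minimum, 45 member genes had a shared site, 165 sites were shared and 142 were in replicate 2 only; the difference from other genes was -0.0424 at GGACA and 0.0502 at AGACT, both of opposite sign, and Mcm3 had a mean of 0.237. With 50 reads, 15 genes and 36 sites were shared, 12 of them at 0.5 or more in both; the median was 0.364, the difference -0.0648 at GGACC and 0.0405 at AGACT (opposite sign), and the means were 0.524 in Mcm2, 0.35 in Mcm5 and 0.379 in Mcm6, while no Mcm3 site was left. At GGACA the difference was 0.0782 with 1 transcript per gene and 0.0929 with 1 value per gene. The median over member sites was 0.314 to 0.333 in single libraries, below the median of site means. Apart from fewer or more sites entering under another minimum, the cause was not tested. No paired analysis was possible because the samples form 1 group. At member sites of 20 to 49 reads the libraries differed by 0.127 in root mean square, and at 50 to 99 reads by 0.0801.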
